A study of Mus musculus with 16 samples.

Results

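The 7 genes Btg1, Btg2, Tob1, Cdkn1b, Slfn2, Pdcd4 and Txnip were followed in single-cell RNA-seq of CD8 T cells from accepted and rejected mouse kidney transplants. They were chosen by name, as genes known for holding lymphocytes or other cells at rest, but with earlier results of these data known. The rule sets no bar on their expression and sorts cells by other genes. All 7 were listed in each of the 9 CD8 matrices, which together held 32285 genes. Each cell was placed by the UMIs (unique molecular identifiers, each marking 1 captured transcript) of 4 genes of cell division, Mki67, Top2a, Birc5 and Stmn1. Cells with a UMI of none of the 4 were called non-dividing (55075 of 72639 cells) and cells with UMIs of at least 2 of them were called dividing (7423 cells). The other 10141 cells, with exactly 1 of the 4, were kept apart. For each library and class, UMI totals per gene were divided by the total of all genes and scaled to CPM, counts per 1000000 UMIs.

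The accepted grafts were kidneys of DBA/2J donors in C57BL/6 (B6) recipients, which accept them without treatment, taken 1, 3 or 24 weeks after transplantation, together with the recipients' spleens. The rejecting grafts were B6 kidneys in DBA/2J recipients at 1 week, again with the spleens, and naive spleens came from mice without a transplant. All mice were male and wild type, and viable CD45+ cells were sorted before capture, so the CD8 cells are those the authors named as such by hand from clusters. The labels give C57BL/6J for all samples, whereas the methods give DBA/2J recipients for the rejecting group. Recipient T cells of the rejecting group therefore came from the other strain by the methods, so strain and rejection cannot be told apart in any comparison with that group. The barcode prefixes told 32 libraries apart, 3 each for the accepted graft and the recipient spleen at 1 and at 24 weeks, 5 each at 3 weeks, 2 for the rejecting graft, 3 for the rejecting recipient's spleen and 5 for the naive spleen. Per the methods each mouse was a separate sample, and each library is treated here as 1 replicate.

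Quiescence is the resting state outside the cell cycle that T cells keep until antigen drives them to grow and divide, and it is actively maintained. BTG1, BTG2 and TOB1 belong to a family of anti-proliferative proteins that bind the CCR4-NOT deadenylase and speed the shortening of poly(A) tails, and in T cells BTG1 and BTG2 are known to keep messenger RNA levels low at rest. Cdkn1b encodes p27, an inhibitor of cyclin-dependent kinases. Slfn2 encodes a Schlafen protein needed for the survival and rest of T cells. PDCD4 blocks the RNA helicase eIF4A and so restrains translation. TXNIP binds thioredoxin and limits glucose uptake, and its gene is known to fall quickly when lymphocytes are activated.

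The start-site regions of 3 members are shown because they carry matches to factors known to act at such genes. The forkhead box (TGTTTAC) is read by FOXO factors, which promote rest in T cells, and the cyclic AMP response element (CRE, TGACGTCA) is read by CREB and ATF proteins. All 7 symbols matched the RefSeq promoter table (GRCm38.p6), from which the 250 bases before each annotated start were searched on both strands. Capitals mark the matches, and the sequences run 5′ to 3′ on the gene's own strand.
Btg1, chr10:96616751-96617000, plus strand, forkhead box starting 204 bases before the start: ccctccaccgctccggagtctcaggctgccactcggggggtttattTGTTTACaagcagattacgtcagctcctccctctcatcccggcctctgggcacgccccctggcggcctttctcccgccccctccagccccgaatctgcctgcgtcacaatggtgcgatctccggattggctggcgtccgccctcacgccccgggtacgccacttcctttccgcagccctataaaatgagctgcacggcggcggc
Txnip, chr3:96557707-96557956, plus strand, forkhead box read on the opposite strand, beginning 121 bases before the start: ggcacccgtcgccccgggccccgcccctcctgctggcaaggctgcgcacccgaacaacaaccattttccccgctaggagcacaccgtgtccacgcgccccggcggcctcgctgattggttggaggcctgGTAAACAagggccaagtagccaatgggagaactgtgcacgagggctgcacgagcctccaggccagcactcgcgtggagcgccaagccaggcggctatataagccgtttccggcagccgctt
Btg2, chr1:134079156-134079405, minus strand, CRE starting 166 bases before the start: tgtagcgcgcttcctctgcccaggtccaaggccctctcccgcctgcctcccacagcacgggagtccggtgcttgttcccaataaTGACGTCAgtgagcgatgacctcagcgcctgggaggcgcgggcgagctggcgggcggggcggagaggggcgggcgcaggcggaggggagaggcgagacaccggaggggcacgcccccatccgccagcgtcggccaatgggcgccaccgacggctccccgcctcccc
Of 32851 promoters of this length, 3.17% held TGTTTAC and 1.55% held TGACGTCA. The forkhead box was found in 2 of the 7 members and the CRE in 1. The E-box CACGTG, present in 6.02% of all promoters, was found in none of the members' windows. The common promoter element CCAAT, held by 33.9% of all promoters, was present in a window of each of the 7 members, for Pdcd4 in 1 of its 2 listed promoters. These matches are descriptions of letters, and binding was not measured.

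The gene bodies lie on 6 chromosomes in GENCODE vM21 (GRCm38, the assembly called mm10 in the submitters' processing notes). They are Btg1, ENSMUSG00000036478.8 (chr10:96617006-96622809, plus strand); Btg2, ENSMUSG00000020423.6 (chr1:134075170-134079120, minus strand); Tob1, ENSMUSG00000037573.5 (chr11:94211454-94215495, plus strand); Cdkn1b, ENSMUSG00000003031.14 (chr6:134920401-134925513, plus strand); Slfn2, ENSMUSG00000072620.3 (chr11:83065112-83070678, plus strand); Pdcd4, ENSMUSG00000024975.13 (chr19:53892231-53929860, plus strand); and Txnip, ENSMUSG00000038393.14 (chr3:96557957-96561883, plus strand). Pdcd4 has 34495 intronic bases, against 528 to 3903 in the other 6 members. The Btg1 pseudogenes Btg1-ps1 and Btg1-ps2 were listed in the 2 rejecting matrices alone and had 0 UMIs there.

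Summed UMIs of non-dividing cells ranged from 118214 to 9544702 per library, and those of dividing cells from 4686 to 16526932. Precision was lowest in the rejecting spleen, where library 2 held 56 cells in all. Of 496 pairs of libraries none shared more than 1.79% of cell barcodes. CD8 T cell markers were present in every group, with the 5 genes Cd3d, Cd3e, Cd3g, Cd8a and Cd8b1 summing to 4785 to 6013 CPM in the 1-week graft and 2561 to 2759 CPM in the 1-week spleen. The 24-week labels are in doubt. Of 17 kidney parenchyma genes, 16 were higher in the 3-week graft than in the spleen, whereas 12 were higher in the libraries labelled 24-week spleen and 1 in those labelled 24-week graft. Values for these libraries are therefore given by label, and no direction between kidney and spleen is drawn from them.

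The dividing class did not mean the same at each time. In the accepted graft at 1 week it held 5812 cells, 75.8% of them with at least 3 of the 4 genes. The 1-week spleen had 543 such cells (69.8% with at least 3 genes), the rejecting graft 700 (70.0%) and the rejecting spleen 43 (65.1%). In the accepted graft at 3 weeks 193 cells met the rule, but 188 of them had exactly 2 genes. The 3 further cell-cycle genes that the rule did not use, chosen after the values were seen, went against the name there. Pclaf, Ccna2 and Cdk1, which act in DNA replication and mitotic entry, had 511, 130 and 149 CPM in the pooled dividing cells of the 1-week graft, whereas 0 UMIs of each were found in the 619250 UMIs of the 3-week cells, which allows up to 4.84 CPM (3 counts, counting error only). Under the 24-week graft and spleen labels 30 of 32 and 46 of 49 such cells had exactly 2 genes. The cells that met the rule at 3 weeks or under the 24-week labels are therefore called cells with at least 2 division genes.

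**Figure D1:**
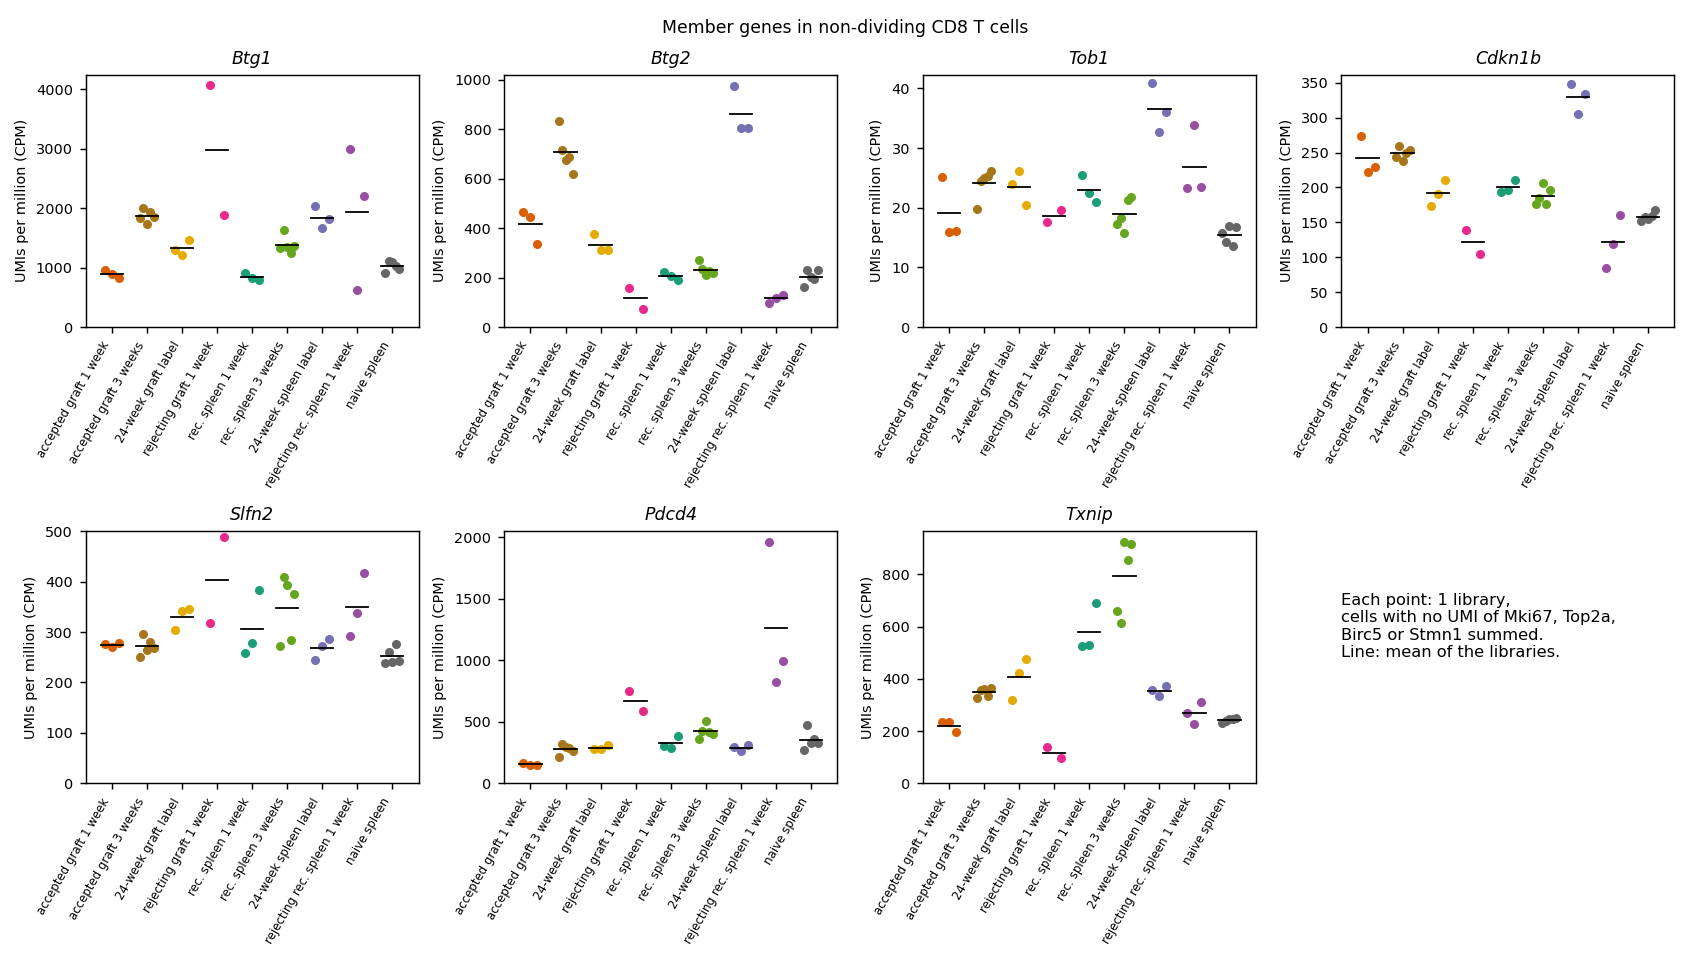
CPM of the 7 genes (vertical axes, linear from 0) in the non-dividing cells of each library (points) for the 9 CD8 matrices (horizontal axes), with the mean as a line. Btg2 stood highest in the libraries labelled 24-week spleen (mean 862 CPM) and the 3-week graft (707 CPM), and Pdcd4 in the rejecting recipient's spleen (1259 CPM).

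The first comparison asked whether dividing cells of a graft carried less of these transcripts than non-dividing cells of the same library. In the accepted graft at 1 week all 7 genes were lower in dividing cells, with 3 libraries compared within themselves by edgeR's quasi-likelihood test with a library block and Benjamini-Hochberg adjustment. Of 10429 genes tested, 19.8% were lower. The member median was a log2 fold change of -0.66, against 0.04 over all genes. The largest differences were those of Txnip and Btg1.

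Txnip stood at 233, 236 and 195 CPM in the non-dividing cells of libraries 1 to 3 and at 112, 113 and 91.8 CPM in their dividing cells (log2 fold change -1.07 ± 0.05 (SE), adjusted p = 1.5e-09). Btg1 stood at 953, 892 and 825 CPM in non-dividing and 468, 481 and 438 CPM in dividing cells (log2 fold change -0.94 ± 0.04 (SE), adjusted p = 8.4e-10). The classes did not overlap for either gene. Slfn2 went from 275, 270.2 and 278 CPM to 154, 145 and 167 CPM (log2 fold change -0.82 ± 0.05 (SE), adjusted p = 2.7e-08). Pdcd4 went from 164, 151 and 149.6 CPM to 110.4, 114 and 77.0 CPM, and the ratio ranged from 0.515 to 0.751 over the libraries (log2 fold change -0.66 ± 0.08 (SE), adjusted p = 2.2e-05). For these 4 genes, and for Cdkn1b and narrowly Tob1 below, each dividing library was below each non-dividing one in CPM. Cdkn1b, the p27 gene, went from 274, 223 and 229 CPM to 173, 158 and 145 CPM (log2 fold change -0.61 ± 0.05 (SE), adjusted p = 6.4e-07). Btg2 went from 465, 446 and 338 CPM to 314, 347 and 256 CPM, where the highest dividing library lay above the lowest non-dividing one although each library fell within itself (log2 fold change -0.44 ± 0.05 (SE), adjusted p = 8.0e-06). Tob1, read at far lower counts, went from 25.2, 16.0 and 16.1 CPM to 14.3, 15.6 and 13.7 CPM (log2 fold change -0.36 ± 0.14 (SE), adjusted p = 0.046), and its call was lost with DESeq2 (adjusted p = 0.19), with at least 3 division genes (adjusted p = 0.10), without the block (adjusted p = 0.11), after thinning (adjusted p = 0.65) and without library 1 (-0.15, adjusted p = 0.46).

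Dividing cells held on average 2.64, 2.43 and 2.18 times the UMIs of non-dividing cells in libraries 1 to 3 of the 1-week graft. On the scale of UMIs per cell the direction was the opposite: all 21 pairs of library and gene had more UMIs of the member in a dividing cell than in a non-dividing cell. Btg1 had 1.75, 2.96 and 1.60 UMIs per non-dividing cell and 2.28, 3.88 and 1.85 per dividing cell. Txnip had the smallest gain, at 1.03 to 1.27 times, and Tob1 reached 1.51 to 2.37 times. The decrease described above is thus one in the share of a cell's UMIs. When each cell was thinned to 1000 UMIs before it was classed, so that depth was equal, the log2 fold changes were -0.82 for Btg1, -0.37 for Btg2, -0.52 for Cdkn1b, -0.66 for Slfn2, -0.67 for Pdcd4 and -0.98 for Txnip, each past the threshold, and -0.19 for Tob1, which was not. No cell of this graft had fewer than 1000 UMIs. Ribosomal protein genes took 28.0 to 29.5% of UMIs in non-dividing and 24.8 to 25.9% in dividing cells. CD4 T cell markers summed to 16.3 to 35.8 CPM in non-dividing and 34.7 to 66.5 CPM in dividing cells, with 2 of 2 genes called higher, and NK cell markers to 123 to 176 CPM and 159 to 236 CPM, with 3 of 4 called higher. In cells with CD8 and no other marker (a UMI of Cd8a or Cd8b1 and none of Cd4, Foxp3, Cd79a, Ms4a1, Lyz2, Csf1r or Ncr1) all 7 members were again called lower.

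**Figure D2:**
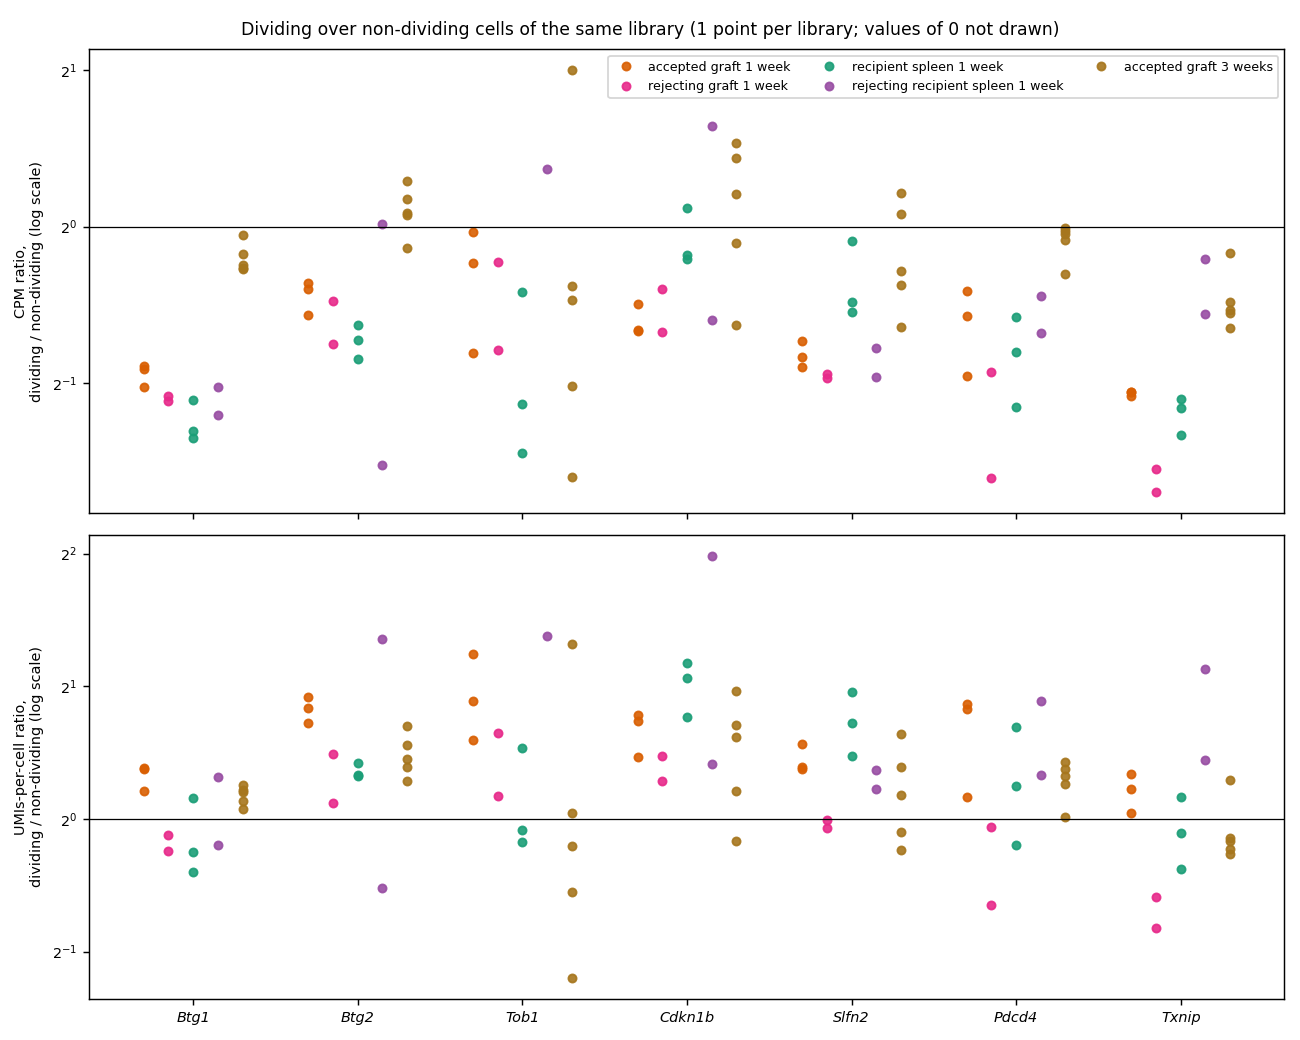
Ratio of dividing to non-dividing cells of the same library (1 point per library with at least 10 dividing cells) for the 7 genes, as a CPM ratio (upper panel) and as a ratio of UMIs per cell (lower panel), both on log scales. In the 1-week accepted graft all 21 points lie below 1 in the upper panel and above 1 in the lower.

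The level was also read against the number of division genes detected. In the 1-week graft, mean Txnip was 221, 169, 119.7, 111 and 99.1 CPM in cells with 0, 1, 2, 3 and 4 of the genes, and it fell at each step in 3 of 3 libraries. Btg1 went through 889.7, 728, 509.9, 438 and 455 CPM, so that most of its decrease was reached at 2 genes. Btg2 went through 416, 368, 329, 318 and 293 CPM and Pdcd4 through 155, 144, 114, 106 and 93.6 CPM, each falling at every step in 2 of 3 libraries. Cdkn1b went through 242, 198, 162, 159 and 157 CPM, and Slfn2, which fell at every step in 1 of 3 libraries, through 275, 233, 177, 149 and 151 CPM. No library fell at every step for Btg1, Cdkn1b or Tob1, and the means of Btg1 and Slfn2 were higher at 4 genes than at 3. Tob1 showed no such order, with 19.1, 13.9, 11.7, 14.7 and 15.4 CPM. Cells with 1 gene lay between the main classes for the 6 genes other than Tob1 in the mean, although Pdcd4 was above the level of 0 genes in 1 library. Median UMIs per cell rose along the same classes, from 1635 to 3062 per library at 0 genes to 4421 to 8448 at 4, and no test was run on these steps.

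**Figure D3:**
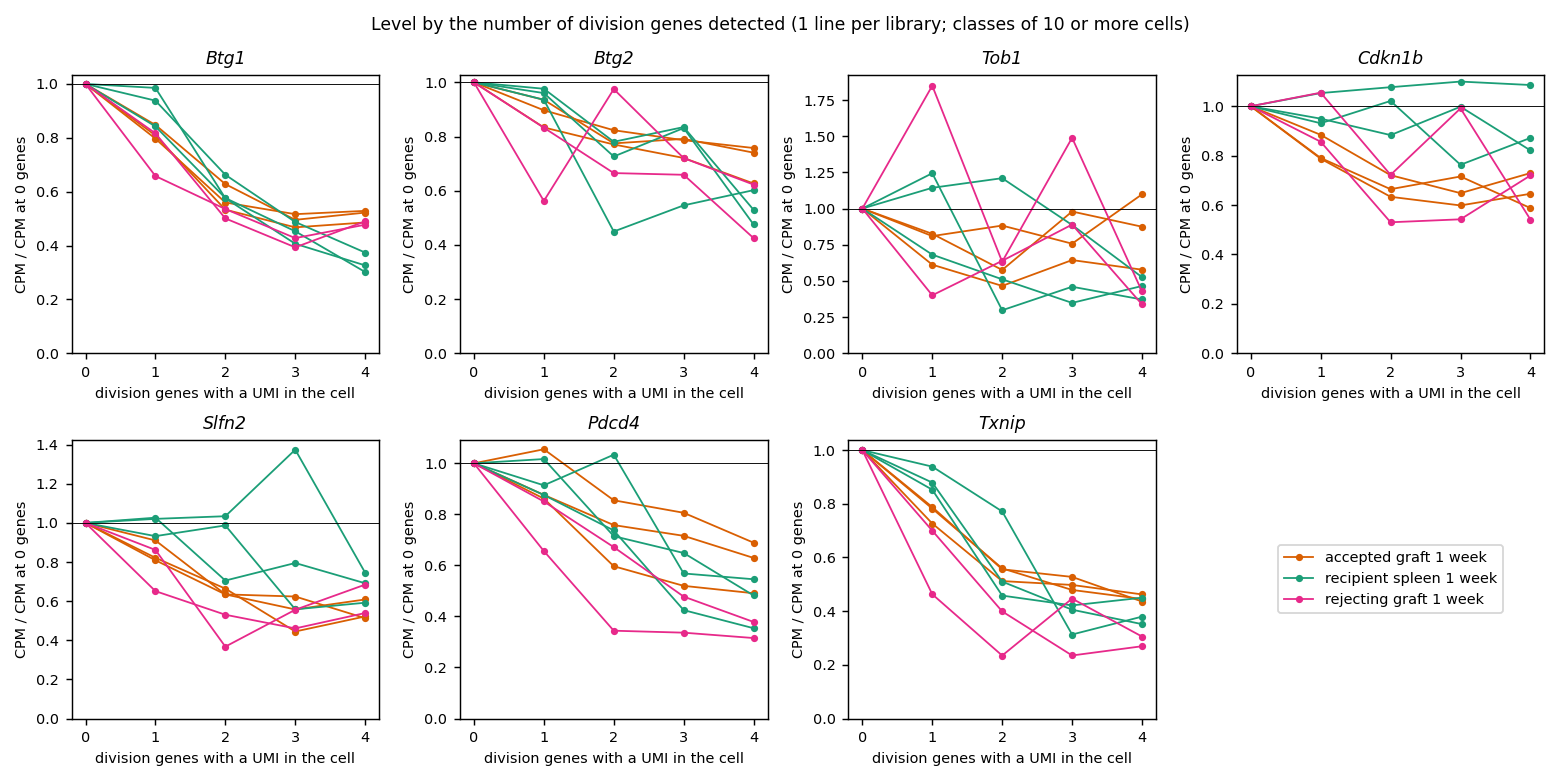
CPM of each gene in cells with 0 to 4 of the division genes (horizontal axis), divided by the CPM at 0 genes (vertical axis, from 0), 1 line per library of the 1-week grafts and the 1-week spleen. Btg1 and Txnip end well below their starting level in each of the 8 libraries, whereas Cdkn1b in the spleen ends below it in 2 of 3.

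In the rejecting graft 6 of the 7 genes were lower in dividing cells, against 7.95% of 8486 genes tested. With DESeq2, 4 of the 7 were called. The test had 2 libraries and so leaned much on the spread shared over all genes. Txnip stood at 139 and 96.4 CPM in the non-dividing cells of libraries 2 and 3 and at 42.9 and 32.8 CPM in their dividing cells (log2 fold change -1.61 ± 0.23 (SE), adjusted p = 2.0e-06). Pdcd4 went from 753 and 584 CPM to 395 and 192 CPM (log2 fold change -1.28 ± 0.13 (SE), adjusted p = 9.5e-09). Btg1 went from 4073 and 1877 CPM to 1883 and 884 CPM (log2 fold change -1.10 ± 0.09 (SE), adjusted p = 1.5e-10). For Btg1 the 2 libraries lay about as far apart as the 2 classes, and the dividing cells of library 2 matched the non-dividing cells of library 3. Slfn2 (-0.96), Btg2 (-0.62) and Cdkn1b (-0.54) were also called lower on the log2 scale. Btg2 lost its call in 4 and Cdkn1b in 6 of 7 alternative settings. Without the library block the calls of Btg1, Btg2, Slfn2 and Cdkn1b were lost (adjusted p 0.11, 0.23, 0.074 and 0.24). Tob1 did not pass (log2 fold change -0.54 ± 0.46 (SE), adjusted p = 0.47). Per cell, Txnip, Pdcd4, Slfn2 and Btg1 had fewer UMIs in dividing than in non-dividing cells in both libraries, for Txnip at 0.565 to 0.664 times. The other members had more in both, at 1.089 to 1.403 times for Btg2, 1.219 to 1.39 times for Cdkn1b and 1.129 to 1.565 times for Tob1.

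Whether the change with division differed between the rejecting and the accepted graft was tested as an interaction. None of the 7 genes passed in edgeR's quasi-likelihood test or with DESeq2, 2 had an unadjusted p under 0.05, and 0.496% of 12090 genes passed. Pdcd4 had the lowest adjusted p, with a difference of -0.63 ± 0.16 (SE) on the log2 scale and an adjusted p of 0.1. It passed without the low-count filter (adjusted p = 1.1e-04), in cells with CD8 and no other marker (adjusted p = 0.010) and with at least 3 division genes (adjusted p = 0.0067), and it did not after thinning (adjusted p = 0.79). Without rejecting library 2 the difference was -0.95 and without rejecting library 3 it was -0.27, so it depended on which library was kept. Without accepted library 3 it was -0.80 (adjusted p = 1.3e-04). Txnip differed by -0.54 (adjusted p = 0.39).

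By CPM, 6 of the 7 genes were lower in dividing cells of the recipient spleen at 1 week, against 9.39% of 10570 genes. Dividing cells held 2.075, 2.41 and 1.94 times the UMIs of non-dividing cells in libraries 1 to 3. Per cell, 14 of 21 pairs of library and gene had more UMIs in dividing cells. Btg2 (1.25 to 1.34 times), Slfn2 (1.39 to 1.94 times) and Cdkn1b (1.705 to 2.254 times) did so in 3 of 3 libraries, whereas Btg1 and Txnip did in 1 of 3. Btg1 went from 916, 827 and 786 CPM to 370.4, 383 and 308 CPM (log2 fold change -1.26 ± 0.10 (SE), adjusted p = 7.9e-12) and Txnip from 526, 528 and 689 CPM to 235, 246 and 273 CPM (log2 fold change -1.21 ± 0.10 (SE), adjusted p = 4.2e-11). Both fell to less than the level of any non-dividing library. Pdcd4 (-0.88), Tob1 (-0.76), Btg2 (-0.72) and Slfn2 (-0.38) passed too. Without 1 library the call of Tob1 was lost in 2 of 3 fits, without library 1 (-0.67, adjusted p = 0.072) and library 2 (-0.61, adjusted p = 0.056), and that of Slfn2 without library 3 (-0.31, adjusted p = 0.12). Tob1 was not called after thinning (-0.29, adjusted p = 0.87) nor Slfn2 without the library block (adjusted p = 0.10). By library totals Cdkn1b did not pass, at 193, 197 and 210.5 CPM in non-dividing and 210.0, 170.2 and 185 CPM in dividing cells (log2 fold change -0.10 ± 0.11 (SE), adjusted p = 0.52), whereas with TMM it was called lower (-0.27, adjusted p = 0.048). Of all genes, 73.7% of the called genes were higher by library totals and 56.7% with TMM. Tob1 turned to 0.09 (adjusted p = 0.89) in cells with CD8 and no other marker. In the rejecting recipient's spleen 3 of 6 tested members were lower, against 2.72% of genes, namely Btg1 (-1.10), Slfn2 (-0.88) and Pdcd4 (-0.54), from 24 and 17 dividing cells of 2 libraries. In that comparison 79% of the called genes were higher by library totals and 62.97% with TMM. On the scale of UMIs per cell, 11 of 14 pairs of library and gene were higher in dividing cells there. Pdcd4 lost its call in cells with CD8 and no other marker (adjusted p = 0.38) and without the library block (adjusted p = 0.54).

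Cells with at least 2 division genes at 3 weeks differed little from their neighbours. By library totals Btg1 was the only member called in the graft (log2 fold change -0.22 ± 0.05 (SE), adjusted p = 0.019), where 0.0661% of 10585 genes were lower. It was below the non-dividing level in 5 of 5 libraries, at ratios of 0.829 to 0.963, but the call was lost in 4 of 5 fits without 1 library (all but that without library 2), with DESeq2 (adjusted p = 0.50) and after thinning (log2 fold change -0.02). Here 68.2% of the called genes were higher by library totals and 25% with TMM. Txnip was lower in 5 of 5 libraries without passing by library totals (log2 fold change -0.43 ± 0.12 (SE), adjusted p = 0.082) and was called lower with TMM (-0.55, adjusted p = 0.0016). Btg2 was higher in 4 of 5 (log2 fold change 0.10 ± 0.07 (SE), adjusted p = 0.95). In the libraries labelled 24-week graft and 24-week spleen no member passed with edgeR by library totals or with DESeq2, and 2 and 3 of 7 had an unadjusted p under 0.05. Of all genes, 0.226% (20 of 8831) and 0.369% (32 of 8661) passed, from 14 and 11 cells in the former and 49 in the latter. With TMM, 2 and 35 genes were called, among the latter Btg1 (-0.56, adjusted p = 0.016) and Txnip (-0.94, adjusted p = 0.0094), both lower in cells with at least 2 division genes. Btg1 was also called lower there in cells with CD8 and no other marker (-0.47, adjusted p = 0.017) and without library 3 (-0.56, adjusted p = 0.0011).

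The second set of comparisons asked how the resting cells themselves changed, using non-dividing cells only. Cycling cells in which none of the 4 genes was captured stay in this class. Cks1b, a cell-cycle gene outside the rule, stood at 16.1 ± 8.06 CPM in the class at 1 week and 3.97 ± 0.41 CPM at 3 weeks, against 255 ± 31.4 CPM in dividing cells at 1 week (SD, n = 3, 5 and 3), and the part of such cells in the changes below was not tested. From 1 to 3 weeks in the accepted graft, 5 members were higher and none was lower, Btg1, Pdcd4, Btg2, Txnip and Tob1. Of 11132 genes tested, 55.9% were higher. The median of all genes was itself 0.47, so that a rise of that size marks the ordinary gene, and the member median was 0.66. With TMM scaling, which sets the typical gene near 0, 30.4% of genes were higher and 30.8% lower. Put as a split, 78.1% of the called genes were higher by library totals and 49.6% with TMM.

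Btg1 showed the largest change. It stood at 953, 892 and 825 CPM at 1 week and at 1837, 1997, 1728, 1942 and 1850 CPM at 3 weeks, without overlap (2.10-fold, log2 fold change 1.07 ± 0.08 (SE), adjusted p = 1.1e-08, TMM 0.63). Pdcd4 stood at 164, 151 and 149.6 CPM and then at 216, 319.5, 297, 286 and 265 CPM (log2 fold change 0.84 ± 0.11 (SE), adjusted p = 4.1e-06, TMM 0.40). Btg2 stood at 465, 446 and 338 CPM and then at 834, 717, 675, 687 and 620.4 CPM (log2 fold change 0.76 ± 0.11 (SE), adjusted p = 1.3e-05, TMM 0.33). These 3 genes rose on both scales, with each 3-week library above each 1-week library. Txnip went from 233, 236 and 195 CPM to 326, 358, 361, 334 and 366 CPM (log2 fold change 0.66 ± 0.09 (SE), adjusted p = 4.3e-06) and also rose with TMM (0.22, adjusted p = 0.038).

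The other members depended on the scaling. Tob1 stood at 25.2, 16.0 and 16.1 CPM and then at 19.9, 24.4, 24.9, 25.3 and 26.2 CPM, with overlap, and its call (log2 fold change 0.34 ± 0.15 (SE), adjusted p = 0.047) turned to -0.09 with TMM and was lost in 6 of 8 fits without 1 library, all but those without 1-week library 1 and 3-week library 1. Cdkn1b stood at 274, 223 and 229 CPM and then at 243, 259.9, 238, 249 and 253 CPM (log2 fold change 0.04 ± 0.08 (SE), adjusted p = 0.67). Slfn2 stood at 275, 270.2 and 278 CPM and then at 251, 297, 265, 281 and 269 CPM (log2 fold change -0.01 ± 0.08 (SE), adjusted p = 0.89). Their CPM thus hardly moved while the ordinary gene rose, and with TMM both were called lower, at -0.39 for Cdkn1b (adjusted p = 2.2e-04) and -0.45 for Slfn2 (adjusted p = 1.4e-04). Ribosomal protein genes took 28.0 to 29.5% of the UMIs at 1 week and 24.8 to 26.1% at 3 weeks, and genes with longer introns rose more, with a median of 0.31 in the lowest and 0.78 in the highest of 10 groups by intron length. The part of either in these changes was not tested. Markers of other cell types moved over the same comparison. NK cell markers summed to 123 to 176 CPM at 1 week and 323 to 693 CPM at 3 weeks (3 of 3 tested called higher, Fcer1g by 2.14, Klrb1c by 1.60 and Tyrobp by 0.83). Most of these sums was Fcer1g, with means of 113 and 501 CPM, whereas Klrb1c stood at 1.55 and 4.70 CPM and Ncr1, not tested, at 0.54 and 0.64 CPM. B cell markers summed to 8.08 to 10.7 CPM and 12.1 to 26.6 CPM (3 of 4 higher) and CD4 T cell markers to 16.3 to 35.8 CPM and 5.36 to 9.52 CPM (2 of 2 lower). In cells with CD8 and no other marker, a choice that does not use Fcer1g, the changes were 1.05 for Btg1, 0.90 for Pdcd4, 0.79 for Btg2 and 0.68 for Txnip, each past the threshold, and 0.26 for Tob1, which was not (adjusted p = 0.13). With the median of genes of like intron length taken out, Btg1 stood at 0.76, Btg2 at 0.56, Txnip at 0.35, Pdcd4 at 0.26, Tob1 at 0.14 and both Cdkn1b and Slfn2 at -0.27.

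When dividing cells were kept in the sums, the changes were larger, at 1.5 for Btg1, 1.15 for Pdcd4, 1.13 for Txnip and 1.00 for Btg2, and Slfn2 (0.36) and Cdkn1b (0.37) were then called higher.

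**Figure D4:**
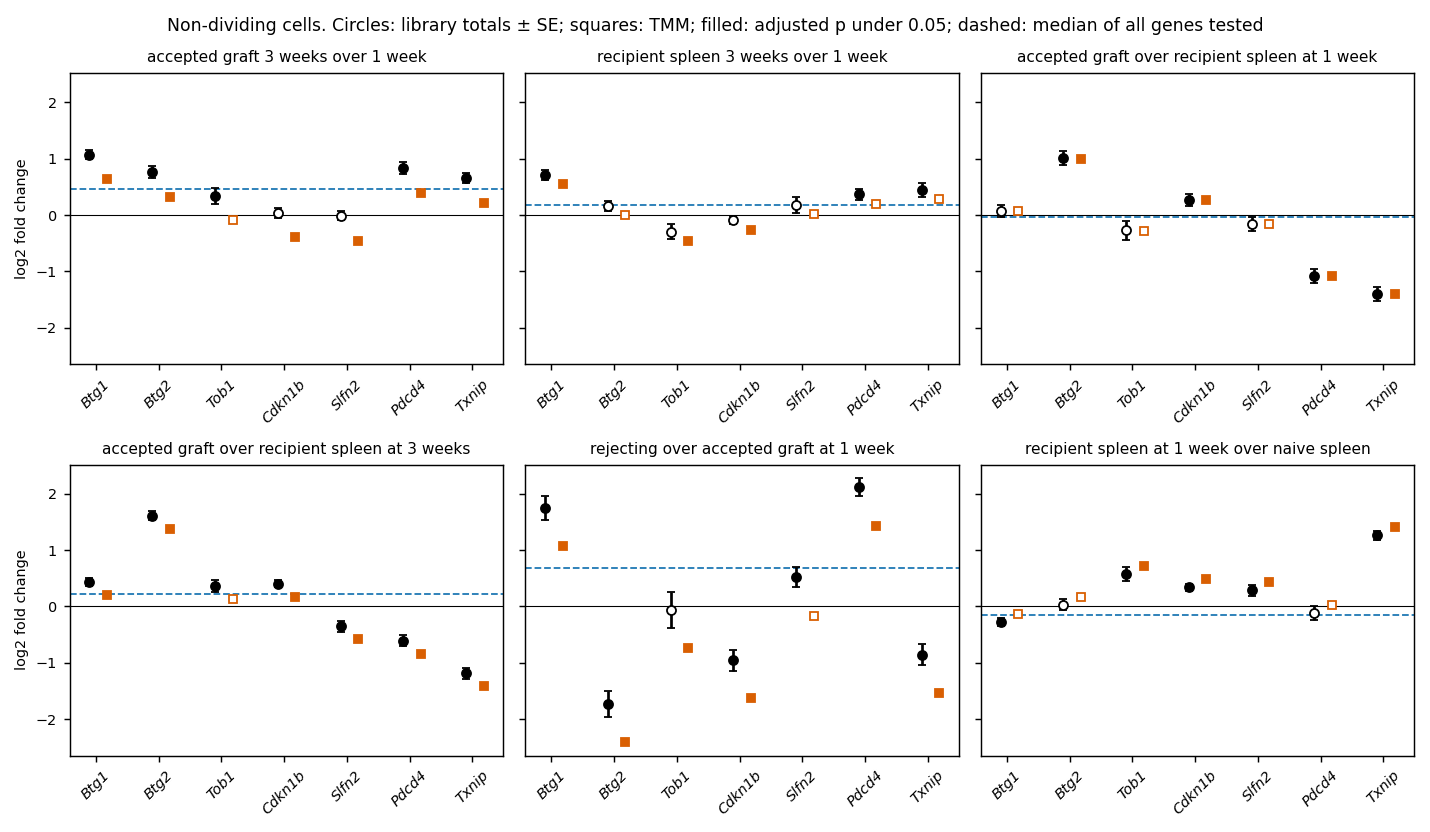
Log2 fold change of each gene in 6 comparisons of non-dividing cells, by library totals (circles, with SE) and by TMM factors (squares). Filled symbols passed the test and the dashed line is the median of all genes tested, which stands at 0.47 for the graft at 3 weeks over 1 week and at 0.67 for the rejecting over the accepted graft.

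In the recipient spleen 3 members were higher at 3 weeks than at 1 week, against 36.5% of 10071 genes (median of all genes 0.19), and 68.03% of the called genes were higher by library totals and 48.4% with TMM. Btg1 went from 916, 827 and 786 CPM to 1331, 1630, 1346, 1249 and 1364 CPM (log2 fold change 0.72 ± 0.09 (SE), adjusted p = 1.8e-06) and was the only one of the 3 also called higher with TMM (0.55). Txnip (0.45) and Pdcd4 (0.37) were not called with TMM (adjusted p = 0.073 and 0.13). Tob1 (-0.29, adjusted p = 0.057) and Cdkn1b (-0.09, adjusted p = 0.33) did not pass by library totals and were called lower with TMM (-0.46 and -0.26). Tob1 was called lower too in 3 of 8 fits without 1 library, those without 1-week library 3 (-0.36) and 3-week library 4 (-0.33) or 5 (-0.35), and Slfn2 (0.18) was called higher without 1-week library 3 (0.37, adjusted p = 0.017). The change in the graft exceeded that in the spleen for Tob1 (0.63 ± 0.20), Btg2 (0.60 ± 0.15), Pdcd4 (0.47 ± 0.16) and Btg1 (0.36 ± 0.12, log2 difference ± SE) as an interaction by library totals, where 25.8% of 11479 genes did, with a median of 0.26. In this test 77.8% of the called genes were higher by library totals and 47.4% with TMM. None of the 4 passed with TMM (adjusted p 0.071 to 0.52) or with DESeq2. Of 16 fits without 1 library, Btg1 lost its call in 2, without 1-week graft library 3 (0.30) or 1-week spleen library 1 (0.29). Tob1 lost it in 3, without 1-week graft library 2 (0.52) or 3 (0.53) or 1-week spleen library 1 (0.55). Pdcd4 lost it in 4, without 1-week graft library 2 (0.45) or 3 (0.44), 3-week graft library 2 (0.41) or 1-week spleen library 3 (0.32).

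Between the graft and the spleen of the same time, some members were higher and others lower. At 1 week Btg2 and Cdkn1b were higher and Txnip and Pdcd4 lower in the graft, against 22.2% higher and 22.1% lower of 10569 genes, with the median of all genes at -0.03. The counts of members thus lie near the shares of all genes. Btg2 stood at 465, 446 and 338 CPM in the graft and 224, 208 and 189.5 CPM in the spleen (2.01-fold, log2 fold change 1.01 ± 0.12 (SE), adjusted p = 5.0e-06). Txnip stood at 233, 236 and 195 CPM against 526, 528 and 689 CPM (log2 fold change -1.39 ± 0.13 (SE), adjusted p = 1.3e-07), and Pdcd4 at 164, 151 and 149.6 CPM against 300.5, 291 and 389 CPM (log2 fold change -1.08 ± 0.12 (SE), adjusted p = 1.5e-06). Graft and spleen did not overlap for these 3 genes. Cdkn1b passed narrowly (log2 fold change 0.27 ± 0.11 (SE), adjusted p = 0.048) and its call was lost after thinning (adjusted p = 0.29), with the tag number as a block (adjusted p = 0.060) and in 3 of 6 fits without 1 library, namely graft library 1 (0.17), spleen library 1 (0.25) and spleen library 2 (0.26). With dividing cells included it turned to -0.033. Btg1, Tob1 and Slfn2 did not pass (0.08, -0.27 and -0.16). Tob1 was called lower without graft library 1 (-0.52, adjusted p = 0.015), and with dividing cells included both Tob1 (-0.47) and Slfn2 (-0.51) were.

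At 3 weeks all 7 members passed, 4 higher in the graft (46.9% of 10688 genes) and 3 lower (19.3%), with a median of 0.23, and 70.9% of the called genes were higher by library totals and 49.9% with TMM. Btg2 stood at 834, 717, 675, 687 and 620.4 CPM in the graft and at 269, 235, 209, 227 and 219 CPM in the spleen (3.05-fold, log2 fold change 1.61 ± 0.08 (SE), adjusted p = 1.9e-12). Btg1 stood at 1871 ± 103 CPM against 1384 ± 144 CPM (SD, n = 5 each; log2 fold change 0.43 ± 0.07 (SE), adjusted p = 1.2e-05). Cdkn1b stood at 249 ± 8.47 CPM against 188 ± 13.6 CPM (log2 fold change 0.40 ± 0.06 (SE), adjusted p = 9.2e-06). Each graft library was above each spleen library for these 3. Tob1 passed by library totals (log2 fold change 0.36 ± 0.11 (SE), adjusted p = 0.0076) and not with TMM (0.13, adjusted p = 0.33). On the lower side, Txnip stood at 326, 358, 361, 334 and 366 CPM against 659, 615, 925, 856 and 914 CPM (log2 fold change -1.19 ± 0.10 (SE), adjusted p = 2.6e-09), Pdcd4 at 277 ± 39.4 CPM against 422 ± 51.7 CPM (log2 fold change -0.61 ± 0.09 (SE), adjusted p = 1.5e-05) and Slfn2 at 272 ± 17.4 CPM against 347 ± 64.1 CPM (log2 fold change -0.35 ± 0.10 (SE), adjusted p = 0.0039). Slfn2 overlapped between graft and spleen, and its call was lost in cells with CD8 and no other marker (-0.14, adjusted p = 0.24).

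Other transcripts moved with these differences. Btg2 is itself known as an immediate-early gene that rises when cells are stressed or stimulated. The 12 immediate-early and stress genes of a fixed list, among them Fos, Jun, Egr1 and the heat shock genes Hspa1a and Hspa1b, summed to 1901 to 2342 CPM in the 1-week graft and 3677 to 4213 CPM in the 3-week graft, against 1645 to 2901 CPM and 1462 to 1862 CPM in the spleens of these times. These sums overlapped between graft and spleen at 1 week and did not at 3 weeks. Per the methods, kidneys were digested with enzymes and spleens were ground. B cell markers summed to 471 to 911 CPM in the 1-week spleen and 8.08 to 10.7 CPM in the graft, and CD4 T cell markers to 71.7 to 79.9 CPM and 16.3 to 35.8 CPM. In cells with CD8 and no other marker, Btg2 differed by 1.29 and Txnip by -1.30 at 1 week. The part of tissue handling in the difference of Btg2 was not tested.

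Rejecting and accepted grafts at 1 week differed for 6 members. Btg1, Pdcd4 and Slfn2 were higher in the rejecting graft and Btg2, Cdkn1b and Txnip lower, against 46.4% higher and 11.7% lower of 10999 genes, with a median of 0.67, and 79.9% of the called genes were higher by library totals and 49.96% with TMM. The accepted libraries are those of the comparisons above. Pdcd4 stood at 753 and 584 CPM in the 2 rejecting and 164, 151 and 149.6 CPM in the 3 accepted libraries (4.34-fold, log2 fold change 2.12 ± 0.16 (SE), adjusted p = 6.1e-11). Btg1 stood at 4073 and 1877 CPM against 953, 892 and 825 CPM (log2 fold change 1.75 ± 0.21 (SE), adjusted p = 1.1e-07), and the fold rested on how far rejecting library 2 exceeded library 3, ranging from 1.08 to 2.19 over the fits without 1 library. Btg2 stood at 159 and 74.8 CPM against 465, 446 and 338 CPM (log2 fold change -1.74 ± 0.23 (SE), adjusted p = 5.2e-07), and its value ranged from -2.48 without rejecting library 2 to -1.39 without rejecting library 3. For these 3 genes the groups did not overlap.

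Cdkn1b stood at 138 and 104 CPM against 274, 223 and 229 CPM (log2 fold change -0.95 ± 0.19 (SE), adjusted p = 1.2e-04) and Txnip at 139 and 96.4 CPM against 233, 236 and 195 CPM (log2 fold change -0.86 ± 0.19 (SE), adjusted p = 4.4e-04). Relative to the median of all genes both were lower still, at -1.63 and -1.54 with TMM. Slfn2 was called higher (log2 fold change 0.53 ± 0.18 (SE), adjusted p = 0.014) but turned to -0.17 with TMM, and without rejecting library 3 it was 0.21 (adjusted p = 0.32). Tob1 did not pass (log2 fold change -0.07 ± 0.31 (SE), adjusted p = 0.87), and with TMM it was called lower (-0.74, adjusted p = 0.038). Ribosomal protein genes took 17.6 to 18.4% of UMIs in the rejecting and 28.0 to 29.5% in the accepted graft. Genes with long introns stood far above those with short ones, with medians of 2.16 and -0.36 in the end groups. With genes of like intron length taken as the zero, Pdcd4 stood at 1.21, Btg1 at 2.11 and Btg2 at -1.37. On that scale Cdkn1b (-0.59) and Txnip (-0.49) were nearer the zero than by library totals, and Slfn2 stood at 0.64 and Tob1 at 0.05. Immediate-early and stress genes summed to 624 to 1266 CPM in the rejecting graft, below the accepted one, with 0 of 12 called higher and 8 lower. The part of these in the differences was not tested, and strain cannot be told apart from rejection.

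Between the rejecting graft and the rejecting recipient's spleen 2 members passed, against 5.72% of 6813 genes lower, and 71.96% of the called genes were higher by library totals and 53.4% with TMM. Txnip stood at 139 and 96.4 CPM in the graft and 269, 228 and 313 CPM in the spleen (log2 fold change -1.19 ± 0.26 (SE), adjusted p = 0.0025), and Pdcd4 at 753 and 584 CPM against 1962, 820.5 and 995 CPM (log2 fold change -0.93 ± 0.30 (SE), adjusted p = 0.038). The 2 genes that were lower in the accepted graft than in its spleen at 1 week were thus lower here also, in comparisons that share no library. Slfn2, which was lower too in the accepted graft at 3 weeks, was not called here. Spleen library 1, with 1962 CPM of Pdcd4, stood apart from the others, and without single libraries the Pdcd4 value ranged from -1.14 to -0.45, no longer past the threshold without spleen library 1 (-0.45) or graft library 3 (-0.76). Txnip was not called without graft library 3 (-0.98, adjusted p = 0.052). Btg2 did not differ beyond its spread, at 159 and 74.8 CPM against 98.6, 118 and 131 CPM (log2 fold change 0.08 ± 0.31 (SE), adjusted p = 0.89), and ran from -0.62 without graft library 2 to 0.46 without graft library 3. Btg1 did not pass (0.60, adjusted p = 0.33) but was called higher without the low-count filter (adjusted p = 0.046) and without graft library 3 (1.05, adjusted p = 0.0045), while without graft library 2 it was -0.068. The gap of Btg2 between graft and spleen in the accepted group was not set against this one by a test.

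The spleen of 1-week recipients of an accepted graft, set against naive spleen, had 4 members higher (21.8% of 10069 genes) and 1 lower (36.7%), with a median of -0.15, and 37.3% of the called genes were higher by library totals and 51.8% with TMM. Txnip stood at 526, 528 and 689 CPM against 232, 238, 245, 248 and 249.9 CPM (2.40-fold, log2 fold change 1.26 ± 0.08 (SE), adjusted p = 1.0e-10), without overlap. Tob1 (log2 fold change 0.58 ± 0.12 (SE), adjusted p = 3.2e-04), Cdkn1b (log2 fold change 0.34 ± 0.07 (SE), adjusted p = 2.0e-04) and Slfn2 (0.28) were also higher, and the last pair were not called in cells with CD8 and no other marker (adjusted p 0.20 and 0.36). Without recipient library 3 the value of Slfn2 was 0.09 (adjusted p = 0.34), and Tob1 was not called after thinning (0.43, adjusted p = 0.069). Btg1 was lower (-0.28), a call lost with TMM (-0.13). Btg2 and Pdcd4 did not pass (0.03 and -0.11), and in cells with CD8 and no other marker Btg2 turned to -0.24 and was called lower (adjusted p = 0.040). B cell markers summed to 471 to 911 CPM in the recipient and 27.4 to 55.1 CPM in the naive spleen.

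By library totals, the libraries labelled 24-week graft had lower Btg2, Btg1 and Cdkn1b and higher Slfn2 than the 3-week graft, against 57.3% lower and 15.5% higher of 11342 genes (median -0.46), and 21.3% of the called genes were higher by library totals and 48.6% with TMM. Btg2 stood at 376, 312 and 312 CPM (log2 fold change -1.08 ± 0.09 (SE), adjusted p = 4.8e-08, TMM -0.64). The values of Btg1 (-0.50) and Cdkn1b (-0.37) were close to the median of all genes and were not called with TMM. With TMM, 7312 of the 11342 genes were called, 48.6% of them higher and the rest lower. Among the members the balance turned there, to 4 higher and 1 lower. Txnip (0.66, adjusted p = 3.7e-05), Pdcd4 (0.51, adjusted p = 6.2e-04) and Tob1 (0.40, adjusted p = 0.0064) were then called higher beside Slfn2. By library totals these 3 did not pass (0.22, 0.07 and -0.05), although Txnip did without 24-week graft library 1 (0.36, adjusted p = 0.0010). Against the libraries labelled 24-week spleen, 4 members were lower (36.4% of 10126 genes) and 1 higher (15%), and 29.3% of the called genes were higher by library totals and 48.7% with TMM. Btg2 stood at 976, 804 and 806 CPM in the latter (log2 fold change -1.37 ± 0.10 (SE), adjusted p = 1.4e-08), Cdkn1b at 348, 306 and 334 CPM against 174, 191 and 210.2 CPM (log2 fold change -0.78 ± 0.10 (SE), adjusted p = 4.0e-06), Tob1 differed by -0.65 and Btg1 by -0.47, and Slfn2 was higher (0.30). Txnip did not pass by library totals (0.19) and was called higher with TMM (0.40, adjusted p = 0.012) and without 24-week graft library 1 (0.34). Pdcd4 did not pass (log2 fold change -0.0061, adjusted p = 0.96, TMM 0.20). If the 2 labels of this time were exchanged, the sign of each value between them would turn. The comparison with the 3-week graft would change too, since the libraries labelled 24-week spleen averaged 862 ± 98.7 CPM of Btg2 and 329 ± 21.7 CPM of Cdkn1b, above the 707 ± 79.5 and 249 ± 8.47 CPM of the 3-week graft, where those labelled graft were below it (SD, n = 3 and 5). This difference was not tested.

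Over the 9 matrices the spread of group means was widest for Pdcd4, at 8.13-fold from the rejecting spleen to the 1-week accepted graft, and for Btg2, at 7.43-fold from the libraries labelled 24-week spleen to the rejecting spleen. It was 6.74-fold for Txnip, 3.53-fold for Btg1, 2.72-fold for Cdkn1b, 2.37-fold for Tob1 and 1.60-fold for Slfn2. The folds of Pdcd4 and Btg1 each lean on 1 library. Pdcd4 stood at 1962 CPM in rejecting spleen library 1, against 820.5 and 994.6 CPM in the others. Btg1 stood at 4073 CPM in rejecting graft library 2, against 1877 CPM in library 3. In the order of Btg2 there were 3 steps at which neighbouring groups did not overlap, namely from the 3-week to the 1-week accepted graft, from the libraries labelled 24-week graft to the 3-week spleen, and from the naive spleen to the rejecting graft. Txnip had 3 such steps, with the 1- and 3-week spleens at the top and the rejecting graft at the bottom. Pdcd4 had 3, Cdkn1b 4, Btg1 2 and Tob1 1. Neighbouring groups overlapped at each step of Slfn2, although groups further apart in its order did not all overlap, such as the libraries labelled 24-week graft (303 to 345 CPM) and the naive spleen (238 to 277 CPM).

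Over the 32 libraries, Pearson correlations of log2(CPM + 1) in non-dividing cells are given as a description, since libraries of a group share their tissue and depth. Among the members Btg2 and Cdkn1b were most alike (r = 0.90), and both ran against Pdcd4 (r = -0.66 and -0.72). Btg1 and Btg2, the closest relatives, had r = 0.16. Of 2528 other genes averaging 50 CPM or more, those most like Btg2 were Coq10b (r = 0.94) and Klf6 (r = 0.93). The closest to Btg1 were Rdx (r = 0.89) and Clk1 (r = 0.88), to Cdkn1b Pnrc1 (r = 0.91) and Rnasek (r = 0.90), to Pdcd4 Ccnd3 (r = 0.94) and Cyth1 (r = 0.92) and to Txnip Gimap6 (r = 0.87) and Srsf5 (r = 0.84). Tob1 was most like Mpp7 (r = 0.76) and Pcna (r = 0.73) and Slfn2 most like Bcl10 (r = 0.76) and Ets1 (r = 0.63), the lowest values of the 7.

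Relatives and partners of the members were read from fixed lists. Of the other BTG and TOB genes, Btg3 (0.76 ± 0.10) and Tob2 (0.57 ± 0.11, log2 fold change ± SE) rose in the graft from 1 to 3 weeks, and Tob2 was lower in dividing cells of the 1-week graft (-0.24 ± 0.07). The CCR4-NOT list, the deadenylase that BTG and TOB proteins recruit with the poly(A)-binding protein, had 11 higher and 0 lower of 12 tested with time, with Cnot1, its scaffold, at 1.10 ± 0.08, and 6 higher and 2 lower of 12 tested with division, with Cnot9 at 1.07 ± 0.11. Of all genes 55.9% were higher and 15.7% lower with time, and 29.9% and 19.8% with division. The values of all these lists are given by library totals only, where the median of all genes with time was 0.47. The rise of Tob2 lay near that median. Genes of cyclin-dependent kinase inhibition and p27 turnover had 10 higher and 2 lower of 13 tested with division, led by Cks1b, a cofactor in the degradation of p27, at 4.0 ± 0.13 and Ccne2 at 2.64 ± 0.17. Of these, Cks1b fell by 2.01 on the log2 scale from 1 to 3 weeks even among non-dividing cells, and Cdk6 rose by 1.70.

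The other Schlafen genes moved apart, with Slfn8 higher by 2.32 ± 0.17 and Slfn1 lower (-0.82 ± 0.09) at 3 weeks, and with Slfn1 (-1.56 ± 0.08) and Slfn5 (-1.77 ± 0.22) lower and Slfn3 higher (1.45 ± 0.33) in dividing cells. Slfn3 and Slfn5 were read at low levels, with means of 1.07 and 6.82 CPM in non-dividing and 2.89 and 2.03 CPM in dividing cells. Slfn1 stood at 68.55 and 23.39 CPM in these classes. Of all genes, 29.9% were higher and 19.8% lower with division. The partners and regulators of Pdcd4 had 4 higher and 1 lower of 8 tested with division. Eif4a1, which encodes the helicase it blocks, was higher in dividing cells (0.63 ± 0.05), as were Eif4g1 (0.62 ± 0.06) and Eif4e (0.49 ± 0.07), whereas Eif4a2, which encodes the other eIF4A helicase of the list, differed by -0.23 ± 0.06. It was the 1 gene of the list called lower and was named after its value was seen. The Txnip list had 2 higher and 2 lower of 10 tested with division, where Arrdc3 (-0.44 ± 0.13), an arrestin relative of Txnip, and Slc2a3 (-0.44 ± 0.10), a glucose transporter gene, were lower as Txnip was. Txn1, which encodes the thioredoxin bound by TXNIP, was higher in dividing cells (0.79 ± 0.05) and lower at 3 weeks (-0.71 ± 0.09), in each case opposite in sign to Txnip. Its level was 473 ± 67.0 CPM in non-dividing and 814 ± 35.2 CPM in dividing cells of the 1-week graft and 289.5 ± 9.54 CPM at 3 weeks (SD, n = 3, 3 and 5). The other called genes of the Txnip list were all higher at 3 weeks, as Txnip was, led by Mlxip (1.17 ± 0.12) and Arrdc3 (1.145 ± 0.14). Of all genes 55.9% were higher and 15.7% lower with time.

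Of 15 other genes known for T cell quiescence, 10 were lower and 1 higher in dividing cells of the 1-week graft, against 19.8% lower and 29.9% higher of all genes, led by Il7r, the interleukin-7 receptor (-1.74 ± 0.09), Bach2 (-1.04 ± 0.17) and Klf2, a factor of resting and recirculating T cells (-0.93 ± 0.07). In the rejecting graft 7 were lower and none higher, against 7.95% and 12.8% of all genes, and 15 of 15 were tested in each. With time in the accepted graft the list had 9 higher and 2 lower, close to the shares of all genes (55.9% higher and 15.7% lower). Klf2 went from 265 ± 15.1 to 66.2 ± 8.79 CPM (-2.0 ± 0.10), whereas Foxo3 (1.89 ± 0.12) and Tsc1 (1.66 ± 0.13) rose.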

How the data were processed

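The single-cell libraries were made by the 10x method, and the authors deposited raw UMI counts per gene and cell, 1 matrix for each tissue and time. Per the submitters' processing notes, reads were aligned with Cell Ranger to mm10, and the methods state that cells were filtered on UMIs, genes and mitochondrial share and named by hand on Seurat clusters. Matrices of all CD45+ cells and of other cell types were not used here. No doublet caller was run, and doublets were not removed beyond the authors' filters.

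Counts were summed per library and cell class, with 10 or more cells needed per class for the tests. Libraries were told apart by the prefix of the cell barcodes. That prefixes mark separate mice is taken from the methods. The p-values rest on the spread between these libraries, where edgeR draws the spread of each gene towards that of all genes tested. With few libraries they lean mostly on this shared spread. edgeR 4.0.16 (R 4.3.3) was used with library totals as the scale, filterByExpr, the quasi-likelihood test and Benjamini-Hochberg adjustment at 0.05, with the library as a block between classes of cells. Adjusted p-values run over all genes tested. Each SE is the absolute log2 fold change over the square root of the F value of the same test, so it is not a separate measure of error. Alternatives were TMM factors, no low-count filter, DESeq2 1.42.0, cells thinned to 1000 UMIs and classed again (464 of 72639 cells left out, 313 of them from the recipient spleen at 1 week), cells with CD8 and no other marker, dividing cells included, at least 3 division genes, no library block, and each library left out. A block on the tag number and a correction by intron length were chosen after seeing the data. The tests were tried on simulated counts with 200 changed genes.

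All 7 members were named by rule, and from each other list at most the 3 called genes with the largest absolute change from 1 to 3 weeks in the accepted graft or with division in the 1-week graft. For likeness of pattern, the 2 genes with the highest r were named. The members and lists were chosen with earlier results of these data known. Lists were read as counts, with no set test. The deviations of same-numbered graft and spleen libraries correlated at r 0.14 to 0.50 over the 5 pairs at 3 weeks. Over 3 pairs each, r was -0.06 to 0.15 at 1 week and -0.05 to 0.26 under the 24-week labels. A library correlated best with its own number in 1 of 5 pairs at 3 weeks, 2 of 3 at 1 week and 1 of 3 under the 24-week labels. These values do not settle whether the numbers pair the libraries, and the main tests of graft against spleen used no such block. Counting limits (3 counts) and intervals cover counting error only. Python 3.11.15, numpy 2.4.6, scipy 1.17.1, pandas 2.3.3 and matplotlib 3.10.9 were used.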

Additional observations from a re-analysis of the deposited data

Results flagged for a closer look

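In the non-dividing cells of the accepted graft at 3 weeks, Tob1 stood at 19.9 CPM in library 1, whereas the nearest of the other 4 libraries stood at 24.4 CPM, a gap large enough to mark that library as apart from its group. Of the groups of 4 to 10 libraries, 21 were examined in this way, and about 1 in 20 would be marked by chance.

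The change from 1 to 3 weeks differed between graft and spleen for 4 members in the interaction test by library totals, by 0.36 for Btg1, 0.60 for Btg2, 0.63 for Tob1 and 0.47 for Pdcd4 on the log2 scale. The median of all genes was 0.26, and none of the 4 was called with TMM factors or DESeq2.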

How the results depend on the processing

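Of 1482 values of single members under an alternative, 1336 kept their side of the threshold, and their direction where either value was called, 91 were no longer called, 41 became called and 14 changed sign. The cause was not tested. From 1 to 3 weeks in the graft, Tob1 turned to -0.090 with TMM and -0.10 with DESeq2, Cdkn1b to -0.39 and -0.40, and Slfn2 to 0.36 with dividing cells included. Between graft and spleen at 1 week, Cdkn1b turned to -0.033 with dividing cells included. Slfn2 in the rejecting over the accepted graft turned to -0.17 with TMM and -0.15 with DESeq2, and Btg2 in recipient over naive spleen to -0.24 in cells with CD8 and no other marker. In the libraries labelled 24-week graft over the 3-week graft, Tob1 turned to 0.40 with both TMM and DESeq2, and Cdkn1b to 0.068 and 0.075. Tob1 in dividing cells of the 1-week spleen turned to 0.092 in cells with CD8 and no other marker.

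Counts of called genes moved by over 1.5 times as follows, where dividing cells stands for all cells with at least 2 division genes. With DESeq2 they were 757 for the rejecting graft over its spleen (1391 with edgeR), 2888, 436, 8, 2122 and 219 for dividing cells of the 1-week graft, rejecting graft, 3-week graft, 1-week spleen and rejecting spleen (5186, 1757, 22, 3777 and 643), and 0 and 4 for those labelled 24-week graft and spleen (20 and 32). The 0 of DESeq2 had 96 genes at an unadjusted p under 0.05, against 20 called by edgeR. After thinning they were 3701 for recipient over naive spleen (5891), 3182 for the 24-week labels (5204), 2188 for the interaction of tissue and time (3808), 2439, 728, 0 and 1261 for dividing cells of the 1-week graft, rejecting graft, 3-week graft and 1-week spleen, and 29 for the interaction of rejection and division (60). The 0 of edgeR after thinning had 65 genes at an unadjusted p under 0.05. In cells with CD8 and no other marker they were 1835 for the interaction of tissue and time and 8, 2451 and 404 for dividing cells of the 3-week graft, 1-week spleen and rejecting spleen. Without the library block they were 3391, 678, 4, 312, 6 and 4 for dividing cells of the 1-week graft, rejecting graft, 3-week graft, rejecting spleen, and those labelled 24-week graft and spleen, and 3 for the interaction of rejection and division, which had 102 without the low-count filter. With TMM they were 44 in the 3-week graft and 2 under the 24-week graft label.

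Without 1 library each, the counts ranged from 4057 to 5967 for the rejecting over the accepted graft, the lowest without rejecting library 2, from 7 to 22 for dividing cells of the 3-week graft, from 2329 to 3721 for those of the 1-week spleen, from 13 to 29 under the 24-week spleen label and from 19 to 90 for the interaction of rejection and division. With the tag number as a replicate block, graft and spleen differed in 4906, 7852 and 5490 genes at 1, 3 and 24 weeks (4691, 7077 and 5204 without it), and no member's call changed other than that of Cdkn1b at 1 week. No fit could be made without single libraries for dividing cells of the rejecting graft, the rejecting spleen or the 24-week graft label. The same holds after thinning for the rejecting spleen and both 24-week labels, with at least 3 division genes for the 3-week graft and both 24-week labels, and in cells with CD8 and no other marker for the 24-week graft label. Depth limits Tob1 most, at 13.6 to 41.0 CPM per library.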
